A study of Mus musculus with 6 samples.

Results

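The genes described here encode the mitogen-activated protein (MAP) kinase cascade and the dual-specificity and protein tyrosine phosphatases, as measured in mouse striatum. They were chosen by name: every probe set annotated with exactly 1 gene symbol that begins with Mapk and a digit, with Map2k, Map3k or Map4k, with Dusp and a digit (1 Dusp gene was outside the rule), or with Ptpn or Ptpr. That gave 105 of 12422 probe sets and 69 of 8251 genes. There were 3 Hdh4/Q80 animals and 3 wild-type littermates, each measured on 1 Affymetrix array, and all were female C57BL/6 mice aged 12 months. Hdh4/Q80 mice are known for a lengthened CAG repeat in huntingtin, and the labels class them as transgenic without giving zygosity. The question put to these genes is whether their striatal transcripts differ in level between mutant and wild-type mice. Values are the authors' robust multi-array average (RMA), a log2 expression level per probe set, and differences below are log2, Hdh4/Q80 minus wild type. Where a gene has several probe sets, values are for the brightest unless stated, and a probe set is called dim where its mean lies below the lower quartile of every array.

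In a MAP kinase cascade, a MAP4K or another upstream signal activates a MAP3K, which phosphorylates a MAP2K, which in turn phosphorylates a MAP kinase (ERK, JNK or p38). Dual-specificity phosphatases (DUSPs) and some tyrosine phosphatases remove those phosphates and end the signal. In striatal spiny neurons, dopamine and glutamate inputs drive ERK. There the striatum-enriched phosphatase STEP, product of Ptpn5, acts on ERK, on p38 and on the kinase Fyn. Receptor-type phosphatases of the Ptpr group span the membrane, and many serve cell adhesion and synapse formation. Arrays measure transcripts only, not phosphorylation or enzyme activity. In bulk striatum, fewer cells of a type and less RNA per cell cannot be told apart.

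No member of the cascade or of the phosphatase families differed past the threshold between Hdh4/Q80 and wild-type striatum. With limma and Benjamini-Hochberg adjustment across the whole array, 0 of 105 member probe sets reached an adjusted p under 0.05, a share of 0%, as over all 12422 probe sets (0%). The smallest adjusted p of a member was 0.857. At an unadjusted p under 0.05 there was 1 member probe set with a higher and 3 with a lower mean in the mutants (0.952% and 2.86%), where all probe sets gave 2.9% and 2.21%, or 5.1% in either direction. The largest difference on a gene's brightest probe set was -0.30 for Dusp6 on the lower side and 0.14 for Map3k8 on the higher side. The 95% interval of the difference stayed inside 1.5-fold, up or down, for 104 of 105 member probe sets and for 98.6% of all probe sets. The exception was Dusp6, whose interval of -0.62 to 0.019 reaches past a 1.5-fold lower level. RMA understates fold changes at the dim and bright ends, so this limit holds on the array scale.

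**Figure D1:**
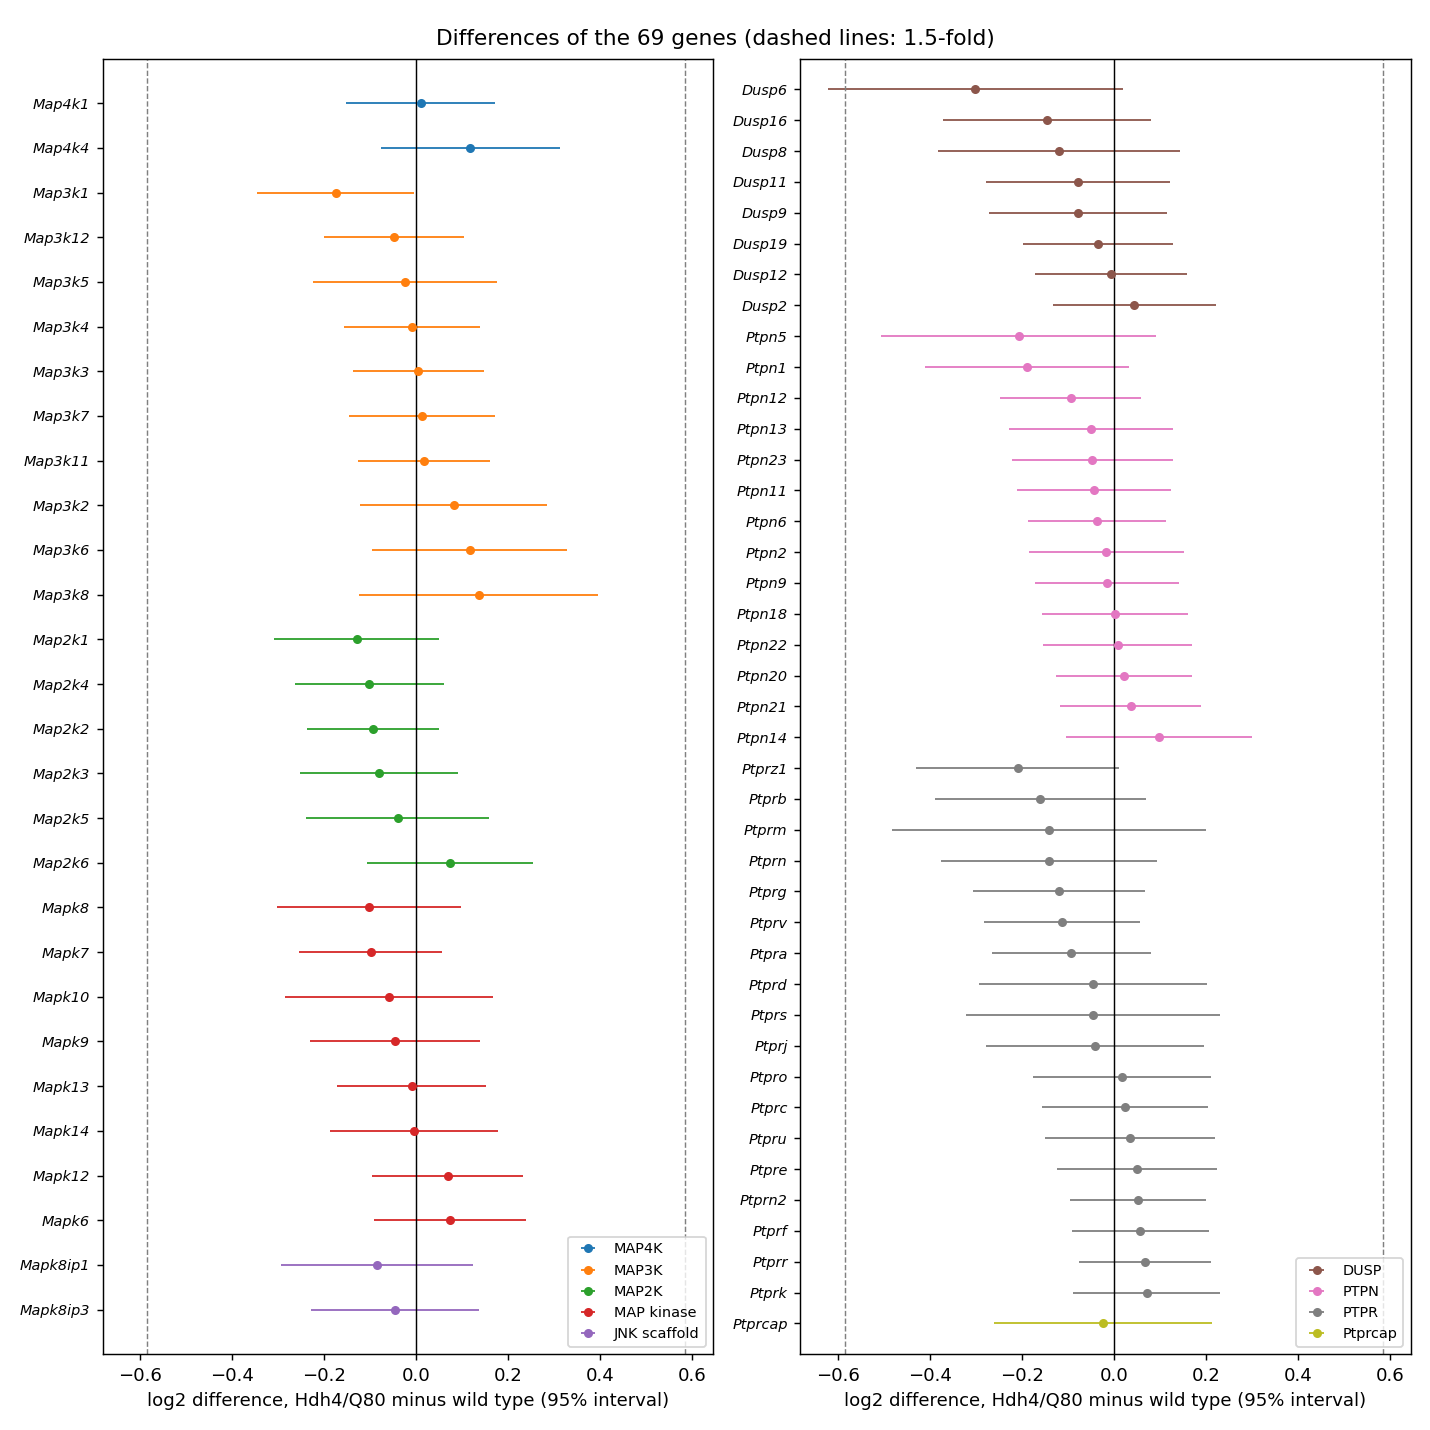
Log2 differences (x axis, Hdh4/Q80 minus wild type) of the 69 genes, each on its brightest probe set, with limma's 95% intervals (3 mice per group) and colours for the families. Every interval crosses 0 except that of Map3k1, which ends at -0.0037, and only the interval of Dusp6 passes a dashed 1.5-fold line.

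By gene, the mean was lower in Hdh4/Q80 striatum for 44 of 69 members (63.8%), against 53.3% of all genes, and the median difference was -0.037, against -0.0072 over all genes. Hdh4/Q80 replicate 8 weighed on this count. It was the lowest of the 6 mice for 32 member genes (46.4%), against 36% of all genes, and without it 35 of 69 members were below 0 (48.6% of all genes) with a median of -0.00029. That array also stood apart over all probe sets: it correlated at 0.992 on average with the rest, where each of the other 5 arrays had 0.995 to 0.997, and the SD of its deviations from the probe set means was 0.179, against 0.072 to 0.119. The 3′ minus 5′ signal of the actin control was 0.634, 0.858 and 0.855 in Hdh4/Q80 replicates 7, 8 and 9, against 0.566 to 0.73 in wild type. The Gapdh control gave 0.116, 0.210 and 0.330 in Hdh4/Q80, against 0.221 to 0.259 in wild type, and the pyruvate carboxylase control 1.82, 1.95 and 2.16, against 1.86 to 2.09. Replicate 8 thus lay above every wild type for actin, below every one for Gapdh and among them for pyruvate carboxylase. The part of RNA quality in the member differences was not tested. The median SD between mice over the member genes was 0.121 in Hdh4/Q80 and 0.0582 in wild type, against 0.107 and 0.0661 over all genes.

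**Figure D2:**
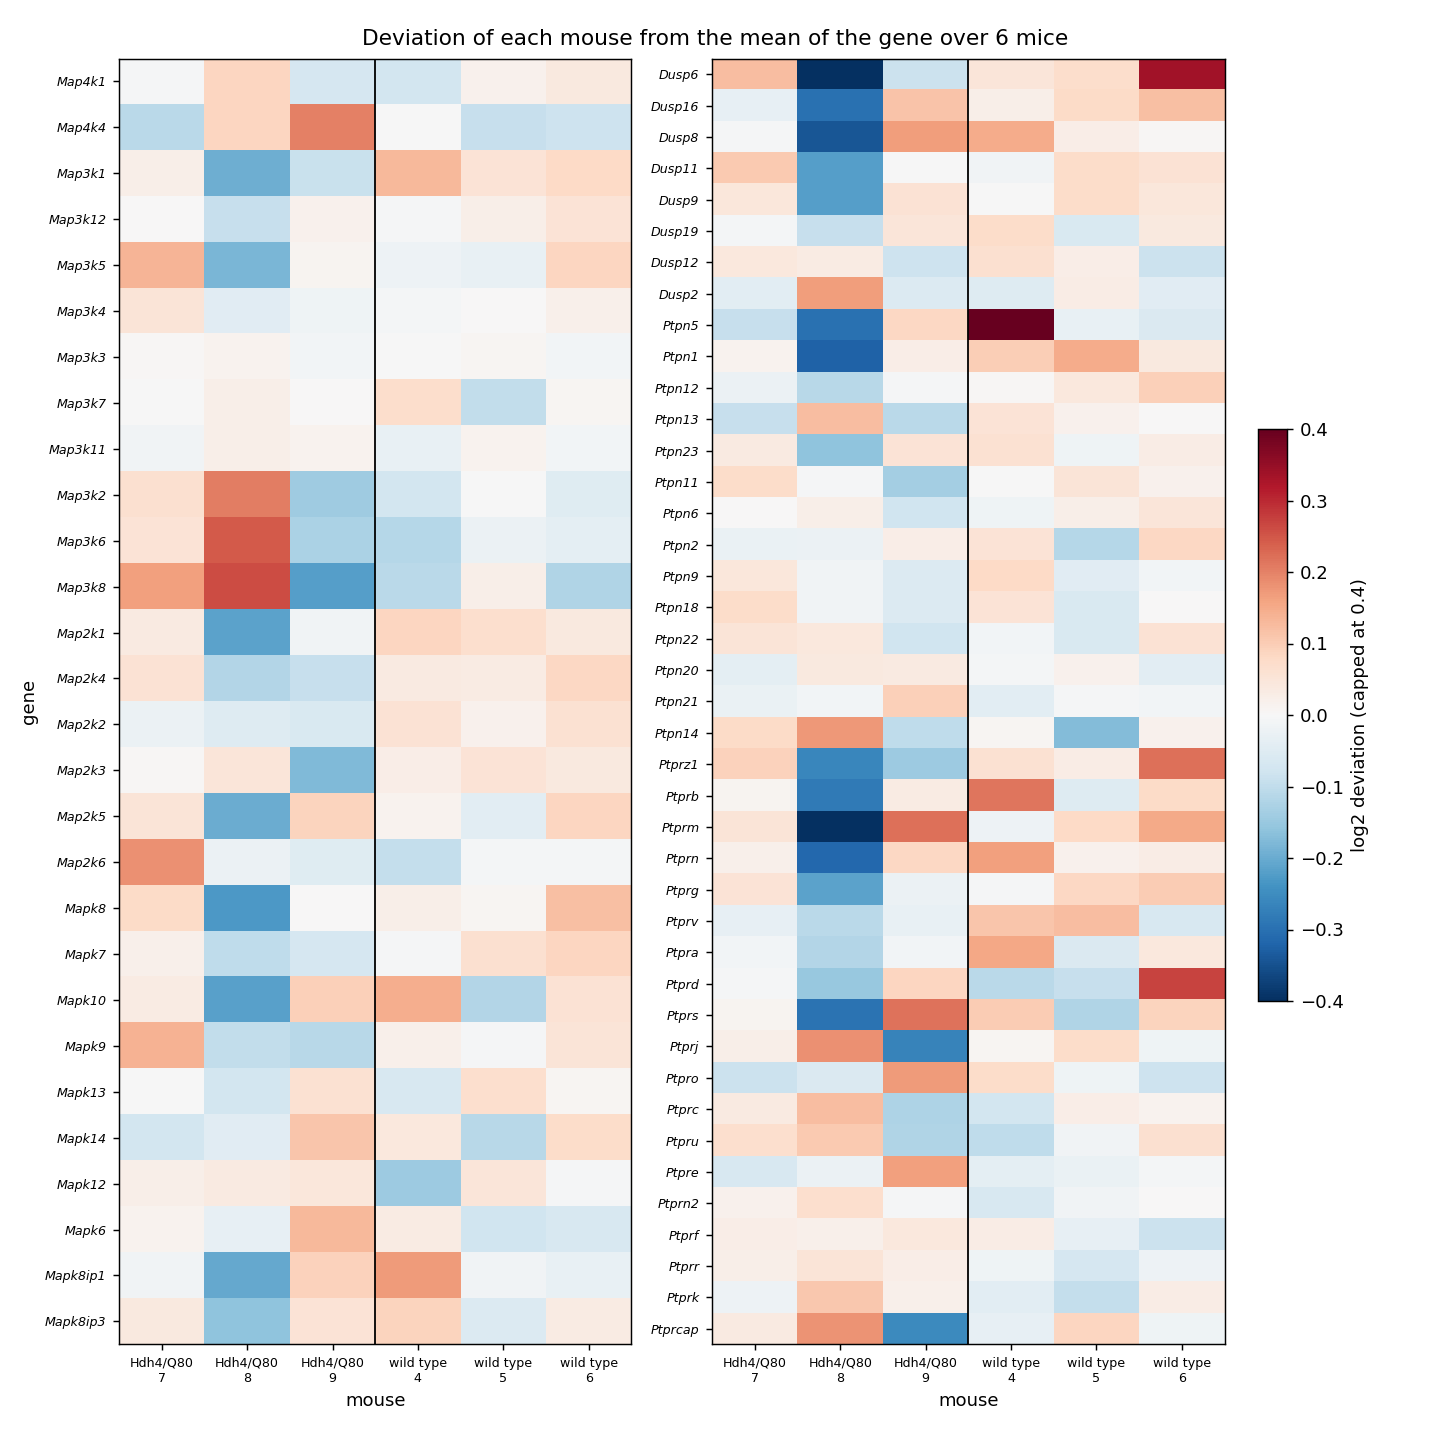
Deviation of each mouse (columns, Hdh4/Q80 left of the line and wild type right of it) from the gene's mean over 6 mice, in log2 units, for the 69 genes (rows, by family). The column of Hdh4/Q80 replicate 8 holds the lowest value of 32 genes and the highest of 17.

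The groups did not overlap for 6 member genes. The 3 mutants all lay below the 3 wild types for Map3k1, Map2k1, Map2k2, Ptpn1 and Ptpn12 (5 genes, where 5.22% of all genes did so), and above them for Ptprr (1 gene, against 5.87%). By probe set, 6 member probe sets were apart on the lower side (5.71%, against 5.05% of all probe sets) and 2 on the higher side (1.9%, against 6.67%). Leaving out a mouse cannot make separate groups overlap, so the counts can only grow: without Hdh4/Q80 replicate 8, Map2k3 and Ptpn13 joined the lower side (7 genes, against 7.93% of all genes), and Ptprr was still the 1 gene on the higher side (against 9.89%).

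The top tiers of the cascade were split in direction. Of 10 MAP3K genes 4 had a difference below 0 and 6 above it (median 0.0093). Map3k1, or MEKK1, which activates the JNK branch, read 6.64, 6.42 and 6.53 in Hdh4/Q80 replicates 7, 8 and 9, against 6.75, 6.67 and 6.70 in wild-type replicates 4, 5 and 6. Every mutant lay below every wild type, by a small margin. The difference was -0.17 with a 95% interval of -0.35 to -0.0037 (unadjusted p = 0.0461, adjusted p = 0.857 in limma's test), and it ran from -0.23 to -0.12 with 1 mouse left out. The other Map3k1 probe sets were both dim. The brighter of them gave -0.22 with overlapping groups (unadjusted p = 0.0458 in limma's test), while the dimmest one gave 0.20.

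Among the members above 0 in this tier, Map3k8 (Tpl2, which feeds the ERK branch in immune cells) read 5.98, 6.08 and 5.60 in Hdh4/Q80 replicates 7, 8 and 9, against 5.71, 5.84 and 5.70 in wild-type replicates 4, 5 and 6. The mutants thus held both the highest and the lowest mouse, and the difference of 0.14 ± 0.116 (SE) became 0.041 without Hdh4/Q80 replicate 8. A dim Map3k8 probe set gave 0.056. Map3k6, a partner of the stress kinase ASK1, differed by 0.12 ± 0.095 (0.023 without replicate 8). Map3k3 and Map3k11 were the steadiest MAP3K genes, with differences of 0.0052 and 0.017 and SDs between mice of 0.00936 to 0.0229 on their brightest probe sets. The other Map3k3 probe sets gave 0.073 and -0.11. Map3k4, which acts on the p38 and JNK branches, differed by -0.0092, Map3k7 (TAK1), a kinase of cytokine signalling, by 0.013, and the dim Map3k2 by 0.082. A dim Map3k7 probe set gave -0.094. Map3k5, the stress-responsive ASK1 itself, differed by -0.024, and Map3k12 (DLK), which carries injury signals in axons, by -0.048. Of the MAP4K genes, Map4k4 read 7.46, 7.65 and 7.77 in Hdh4/Q80 replicates 7, 8 and 9, against 7.56, 7.47 and 7.48 in wild-type replicates 4, 5 and 6. Its groups overlapped (difference 0.12 ± 0.0874, SE). With array weights, which lean on replicate 7, the Map4k4 difference was -0.016, and its dim probe sets gave 0.048 and -0.11. Map4k1, known from blood cells, differed by 0.010.

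The MAP2K tier had 5 of 6 genes below 0 (median -0.087), and 0 passed the test. Map2k1 (MEK1), the kinase that phosphorylates ERK, averaged 8.90 ± 0.132 in Hdh4/Q80 and 9.03 ± 0.023 in wild type (SD, n = 3 each), with 8.75 and 8.95 in Hdh4/Q80 replicates 8 and 9, against 9.05, 9.03 and 9.01 in wild-type replicates 4, 5 and 6. The wild types lay within a narrow band, Hdh4/Q80 replicate 7 just under it, and replicate 8 lowest. The difference of -0.13 ± 0.0803 (SE) became -0.054 without that mouse, and a dim probe set of Map2k1 gave 0.12. Map2k2 (MEK2), which acts on the same substrates, read 7.43, 7.41 and 7.40 in Hdh4/Q80 replicates 7, 8 and 9, against 7.52, 7.48 and 7.52 in wild-type replicates 4, 5 and 6. Here the mice of each group lay close together (SD 0.0193 and 0.0247), and the difference of -0.092, with an interval of -0.24 to 0.051, ran from -0.11 to -0.085 with 1 mouse left out. Map2k4, which activates JNK and p38, read 8.49, 8.32 and 8.34 in the mutants, against 8.47, 8.47 and 8.52 in wild type (difference -0.10 ± 0.0729, SE), and Hdh4/Q80 replicate 7 lay among the wild types. Map2k3 and Map2k6, both activators of p38, differed by -0.081 and 0.074 (Map2k6 was dim), and Map2k5, which activates Mapk7, by -0.040. The second Map2k3 probe set gave 0.091, and a dim one -0.099.

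**Figure D3:**
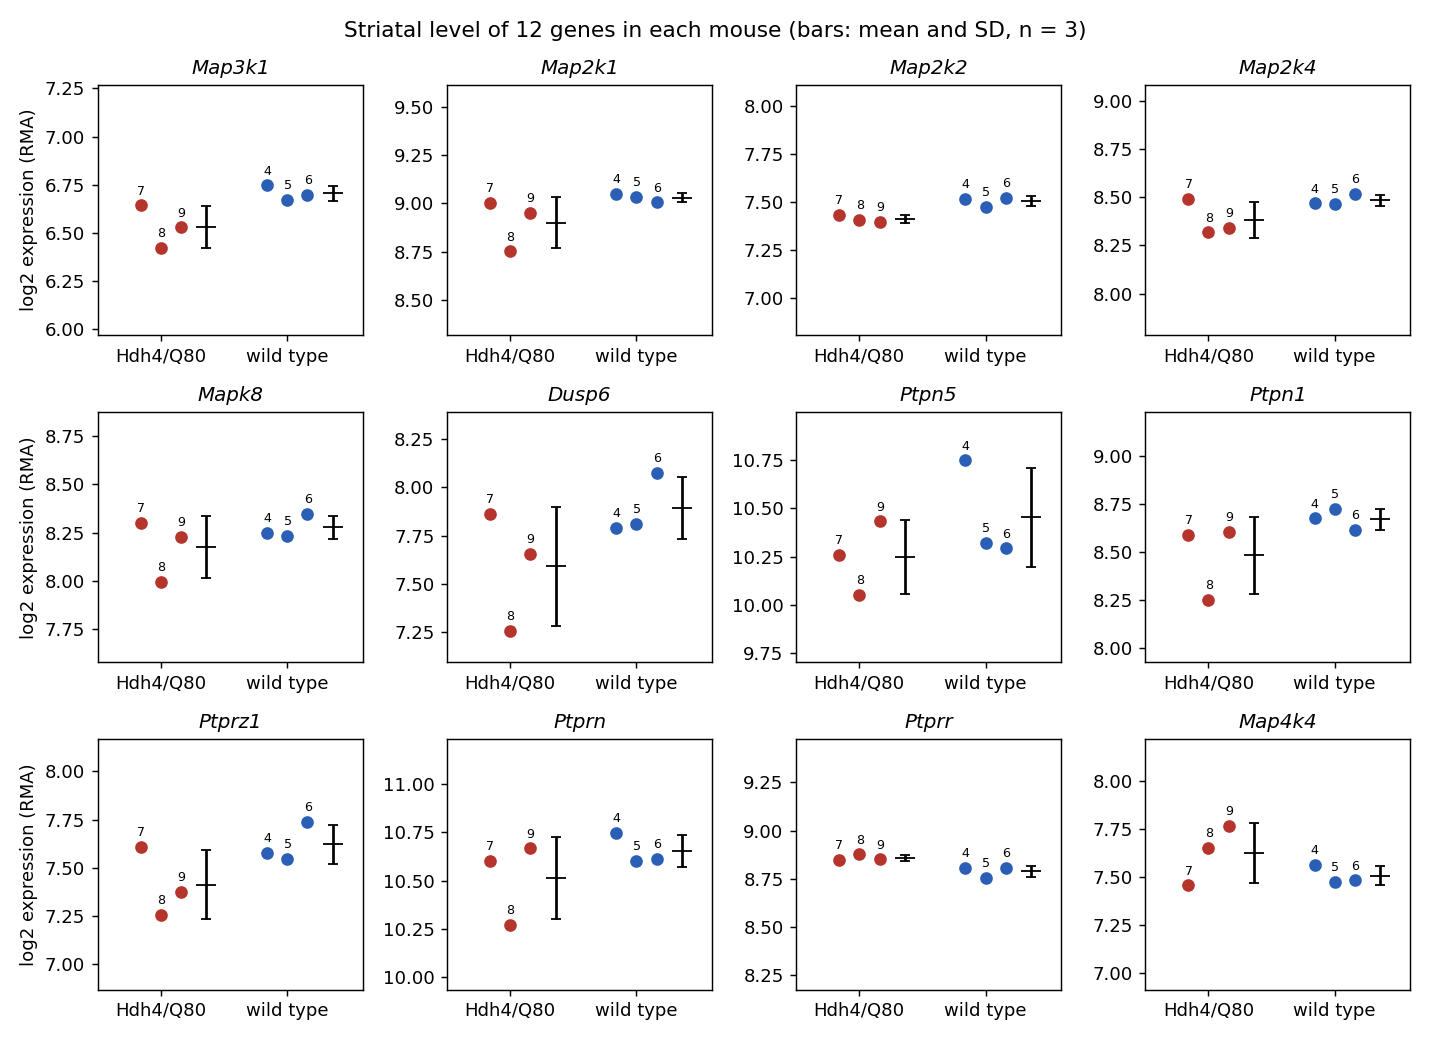
Log2 expression (y axis, the same span in each panel) of 12 genes in each Hdh4/Q80 (left, red, replicates 7 to 9) and wild-type mouse (right, blue, replicates 4 to 6), with the mean and SD of 3 mice as bars. Replicate 8 is the lowest mouse for Map3k1, Map2k1, Map2k4, Mapk8, Dusp6, Ptpn5, Ptpn1, Ptprz1 and Ptprn, and in Ptprr every mutant lies above every wild type.

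The MAP kinases themselves had small differences, from -0.10 to 0.074 over 8 genes, 6 of them below 0. Mapk8 (JNK1) read 8.30, 8.00 and 8.23 in Hdh4/Q80 replicates 7, 8 and 9, against 8.25, 8.23 and 8.35 in wild-type replicates 4, 5 and 6. Replicate 8 was again the lowest, and the difference of -0.10 became -0.012 without it. A dim Mapk8 probe set gave -0.016. Mapk10 (JNK3), the JNK gene expressed mainly in neurons, averaged 9.75 ± 0.167 in Hdh4/Q80 and 9.81 ± 0.134 in wild type (SD, n = 3 each). Its difference of -0.059 turned to 0.035 without replicate 8 and was 0.063 on a second probe set. Mapk9 (JNK2) differed by -0.046 and Mapk14 (p38 alpha) by -0.0040, with intervals of -0.23 to 0.14 and -0.19 to 0.18. Mapk7 (ERK5) differed by -0.099, while Mapk6 (ERK3) and Mapk12 (p38 gamma) differed by 0.074 and 0.069. Mapk13 (p38 delta) was dim and differed by -0.0095. The JNK scaffolds, which hold the kinases of the branch together, were Mapk8ip1 (-0.085, and -0.13 on its other probe set) and Mapk8ip3 (-0.045). In both of them replicate 8 was the lowest of the 6 mice.

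Of 8 DUSP genes 7 were below 0 (median -0.078), with replicate 8 the lowest mouse in 6 of them. Dusp6, a cytoplasmic phosphatase of ERK whose own gene is induced by ERK signalling, read 7.86, 7.25 and 7.65 in Hdh4/Q80 replicates 7, 8 and 9, against 7.79, 7.81 and 8.08 in wild-type replicates 4, 5 and 6. Among the brightest probe sets of the members it had the widest range between mice (0.823), and the groups overlapped, since replicate 7 lay above 2 of the wild types. The difference was -0.30 ± 0.143 (SE), a 1.23-fold lower mean, and it missed the threshold (unadjusted p = 0.0626, adjusted p = 0.857 in limma's test). The Dusp6 difference became -0.13 without Hdh4/Q80 replicate 8 and -0.44 without replicate 7, and a dim probe set gave -0.0033. Dusp8 and Dusp16, which act on JNK and p38, differed by -0.12 and -0.15, again with replicate 8 lowest (8.63 and 5.99, against 8.96 to 9.13 and 6.26 to 6.41 in the other 5 mice). Their second probe sets gave 0.081 and 0.0091. Dusp2, a nuclear phosphatase of ERK, differed by 0.045. Dusp11, an RNA phosphatase, differed by -0.078, Dusp19 by -0.034 and Dusp12 by -0.0053. The only Dusp9 probe sets were dim and opposite in sign (-0.077 and 0.11). Dusp3 and Dusp4 were not analysed here, since no probe set used has exactly that 1 symbol.

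The promoters of Dusp6 and Map2k1 are shown because these genes stand at the end and near the start of the ERK branch and their brightest probe sets had differences below 0. The sequences are from RefSeq (mouse build GRCm38.p6) and run from 250 bases before to 50 after the annotated start, on the gene's strand. Of 69 member genes 57 had a promoter in that table. Capitals mark matches, on either strand, to the ETS core CGGAAG, the cyclic AMP response element core TGACG, the GC box GGGCGG or the CArG box (which serum response factor binds). No match overlapped another. The Dusp6 promoter lies at chr10:99262981-99263280 on the plus strand and the Map2k1 promoter at chr9:64253556-64253855 on the minus strand.
Dusp6: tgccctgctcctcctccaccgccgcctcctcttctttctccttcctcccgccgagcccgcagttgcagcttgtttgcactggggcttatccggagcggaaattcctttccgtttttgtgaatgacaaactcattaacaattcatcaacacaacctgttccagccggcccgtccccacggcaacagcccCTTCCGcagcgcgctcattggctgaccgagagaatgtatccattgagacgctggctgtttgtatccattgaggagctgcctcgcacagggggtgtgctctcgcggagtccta
Map2k1: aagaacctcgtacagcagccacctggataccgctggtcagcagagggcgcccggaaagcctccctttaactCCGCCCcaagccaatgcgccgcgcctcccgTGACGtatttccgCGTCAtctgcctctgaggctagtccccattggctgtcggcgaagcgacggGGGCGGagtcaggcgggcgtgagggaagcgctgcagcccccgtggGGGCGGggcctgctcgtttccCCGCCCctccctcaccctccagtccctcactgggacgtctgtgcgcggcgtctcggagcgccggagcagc
Dusp6 held 1 match, to the ETS core, starting 62 bases before the start site. Map2k1 held 2 cyclic AMP response element cores and 4 GC boxes. Neither held a CArG box. Among all 32851 promoters in the table, 16.9% held the ETS core, 20.8% the response element core, 35.7% the GC box and 1.63% the CArG box. Among 80 promoters of member genes the shares were 15%, 36.2%, 57.5% and 2.5%. These 80 promoters belong to 57 genes, so some genes count more than once. The full set was not limited to genes on the array, so the shares are not a like comparison, and their difference was not tested. A match describes letters in a window and shows no binding.

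The cytoplasmic tyrosine phosphatases were near 0 as a family (14 genes, 9 below 0, median -0.026), with Ptpn5 and Ptpn1 at the lower end. Ptpn5, which makes STEP, read 10.26, 10.05 and 10.43 in Hdh4/Q80 replicates 7, 8 and 9, against 10.75, 10.32 and 10.29 in wild-type replicates 4, 5 and 6. Replicate 9 lay above 2 of the wild types, and wild-type replicate 4 was the highest mouse. The difference of -0.21, with an interval of -0.51 to 0.092, became -0.059 without wild-type replicate 4 and -0.11 without Hdh4/Q80 replicate 8. The second Ptpn5 probe set, which is dim, gave 0.24, and the mean of both probe sets gave 0.018. Spiny neuron markers gave no common direction beside it: of 15 measured markers from a list of 25, 7 were below 0 and 8 above (median 0.0022). At an unadjusted p under 0.05 in limma's test 1 of them was higher and 0 lower. The mean log2 level of these markers was 8.79 to 8.94 per mouse in Hdh4/Q80 and 8.82 to 8.97 in wild type, and Penk, which these neurons express strongly, read 12.94, 13.14 and 13.03 in Hdh4/Q80 replicates 7, 8 and 9, against 13.14, 13.00 and 12.92 in wild-type replicates 4, 5 and 6. The part of spiny neurons in the Ptpn5 values was not tested.

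Ptpn1 (PTP1B), which dephosphorylates the insulin and leptin receptors, read 8.59, 8.25 and 8.60 in Hdh4/Q80 replicates 7, 8 and 9, against 8.67, 8.72 and 8.61 in wild-type replicates 4, 5 and 6. The groups did not overlap, but Hdh4/Q80 replicates 7 and 9 lay just below wild-type replicate 6. The difference of -0.19 ± 0.0991 (SE) became -0.074 without replicate 8. Ptpn12 (PTP-PEST), a regulator of cell adhesion and the cytoskeleton, read 5.91, 5.83 and 5.93 in the mutants, against 5.94, 5.98 and 6.03 in wild type (difference -0.094). Ptpn14 had the highest difference of the family, 0.098 ± 0.0907 (SE), and it was 0.036 without replicate 8. Ptpn11 (SHP2), which promotes Ras and ERK signalling downstream of receptor tyrosine kinases, was dim here (4.43 ± 0.106 in Hdh4/Q80 and 4.47 ± 0.0267 in wild type, SD, n = 3 each), under the first quartile of every array, the lowest of which was 5.79, and it differed by -0.044. Ptpn9, Ptpn18, Ptpn21 and Ptpn23 differed by -0.015, 0.0023, 0.037 and -0.047. Ptpn13 differed by -0.050, and the dim Ptpn2 and Ptpn20 by -0.016 and 0.023.

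Among the 18 receptor phosphatases 10 were below 0 (median -0.044). Ptprz1, made by astrocytes and oligodendrocyte precursors, read 7.61, 7.26 and 7.37 in Hdh4/Q80 replicates 7, 8 and 9, against 7.58, 7.55 and 7.74 in wild-type replicates 4, 5 and 6. Mutant replicate 7 lay among the wild types, and the difference was -0.21 ± 0.099 (SE), short of the threshold (unadjusted p = 0.0615, adjusted p = 0.857 in limma's test). Its other probe sets gave -0.0091 and 0.035. Beside it, 8 of 10 measured astrocyte markers were below 0 (median -0.13; mean level 9.26 to 9.44 in Hdh4/Q80 and 9.43 to 9.49 in wild type). At an unadjusted p under 0.05 in limma's test, 1 astrocyte marker was lower and 1 higher. Of 10 measured markers of oligodendrocytes and their precursors 7 were below 0 (median -0.046; mean level 8.98 to 9.05 in Hdh4/Q80 and 9.06 to 9.15 in wild type). Of these, 2 were lower at an unadjusted p under 0.05, while the precursor marker Pdgfra differed by 0.055. Over all genes 53.3% were below 0, and 2.21% of all probe sets were lower and 2.9% higher at that p. In both marker lists 0 passed the adjusted test. Replicate 8 gave the astrocyte low of 9.26 and the oligodendrocyte high of 9.05 among the mutants. Ptprb, the phosphatase of vascular endothelium, differed by -0.16 ± 0.103 (SE; -0.058 without replicate 8), and 7 of 12 endothelial and mural markers were below 0 (median -0.030; mean level 7.14 to 7.19 in Hdh4/Q80 and 7.18 to 7.27 in wild type). Of these markers 1 was lower at an unadjusted p under 0.05, and replicate 8 had the lowest mean level (7.14). The part of these cell types in the Ptprz1 and Ptprb values was not tested.

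The neuronal receptor phosphatases Ptprd and Ptprs had differences smaller than the SD between mice of either group. Ptprd, Ptprs and Ptprf form the LAR family of synaptic organizers. Ptprd averaged 8.45 ± 0.121 in Hdh4/Q80 and 8.50 ± 0.216 in wild type (SD, n = 3 each). Its other probe sets gave -0.24 and 0.050, and its difference of -0.046 turned to 0.078 without wild-type replicate 6. Ptprs, at -0.046, turned to 0.091 without Hdh4/Q80 replicate 8, and Ptprf differed by 0.058. Ptprn (IA-2), a catalytically inactive member of dense-core vesicles, read 10.60, 10.27 and 10.67 in Hdh4/Q80 replicates 7, 8 and 9, against 10.75, 10.60 and 10.61 in wild-type replicates 4, 5 and 6. Replicate 8 alone lay well below the others, and the difference of -0.14 became -0.018 without it. Its relative Ptprn2 differed by 0.053. Ptprr, which binds ERK through the same kind of motif as STEP, read 8.85, 8.88 and 8.85 in the mutants, against 8.81, 8.76 and 8.80 in wild type. All mutants lay above all wild types, and the difference was 0.069 ± 0.0644 (SE), 0.052 to 0.078 with 1 mouse left out. A dim Ptprr probe set gave 0.10.

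The adhesion receptors Ptprk, Ptprm and Ptpru differed by 0.071, -0.14 and 0.035. A dim Ptprk probe set gave -0.16. For Ptprm, replicate 8 read 6.09 and the other 5 mice 6.55 to 6.79, while a second probe set gave 0.017. Ptpra and Ptpre, close relatives that act on Src kinases, differed by -0.092 and 0.050. A dim Ptpra probe set gave 0.13. Ptprg, Ptprj and Ptpro differed by -0.12, -0.041 and 0.018. The other Ptprj probe sets, both dim, gave -0.11 and 0.16. Ptprv was the member with the smallest p: a probe set that was not its brightest read 7.73, 7.63 and 7.71 in Hdh4/Q80 replicates 7, 8 and 9, against 7.88, 7.94 and 7.82 in wild-type replicates 4, 5 and 6. The groups were apart there, with a difference of -0.19 ± 0.0706 (SE) that missed the threshold (unadjusted p = 0.0225, adjusted p = 0.857 in limma's test). Its brightest probe set gave -0.11 with overlapping groups, and a dim one 0.054.

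Phosphatases known from blood cells and microglia were mostly dim. Ptprc (CD45), carried by leukocytes and microglia, read 4.97 ± 0.125 in Hdh4/Q80 and 4.95 ± 0.0548 in wild type (SD, n = 3 each) on its brightest probe set, a difference of 0.024. A dimmer Ptprc probe set supplied the only member value above 0 at an unadjusted p under 0.05. It read 3.57, 3.56 and 3.68 in the mutants, against 3.48, 3.40 and 3.47 in wild type, close to the bottom of the arrays (lowest value 2.57), and the remaining Ptprc probe set gave -0.10. Ptpn6 (SHP1) differed by -0.037, Ptpn22 by 0.0087 and Ptprcap, a protein that binds CD45, by -0.024. The other Ptpn22 probe set, also dim, gave -0.10. On the same arrays 12 of 13 microglial and leukocyte markers were below 0 (median -0.083), against 53.3% of all genes. At an unadjusted p under 0.05 in limma's test 4 were lower, against 2.21% of all probe sets, and 0 passed the adjusted test. Their mean level was 8.03 to 8.20 in Hdh4/Q80, lowest in replicate 8, and 8.22 to 8.31 in wild type. The part of these markers in the values of the phosphatases was not tested.

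For 27 genes with several probe sets, the probe sets shared a sign in 7: Dusp6, Map2k6, Map3k4, Map3k8, Mapk8, Mapk8ip1 and Ptprr. In all, 34 of 105 member probe sets were dim, and for 10 of 69 genes even the brightest one was. Where the signs differ, a gene's direction rests on the choice of probe set.

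**Figure D4:**
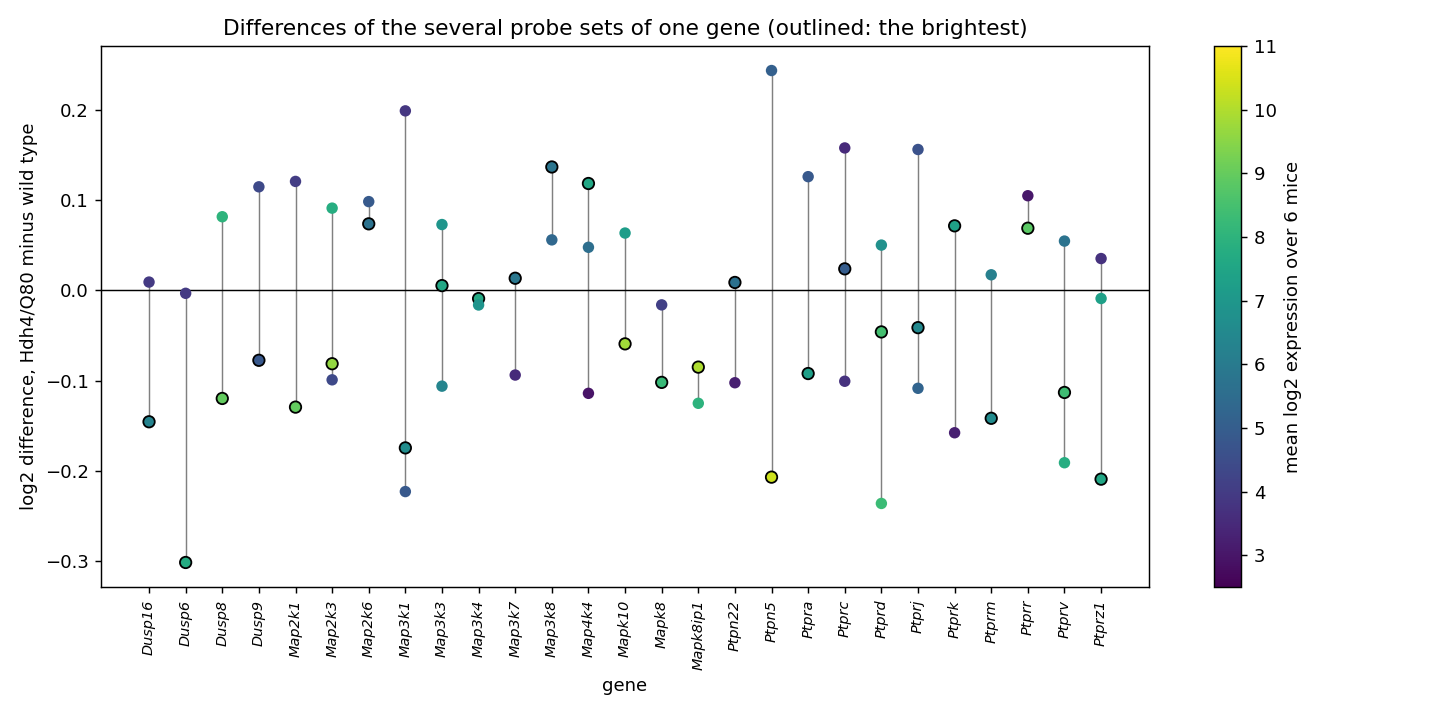
Log2 differences (y axis, Hdh4/Q80 minus wild type) of all probe sets of the 27 genes that have several, coloured by mean log2 expression over 6 mice; outlined points are each gene's brightest probe set. The pairs of Ptpn5 (-0.21 and 0.24) and Map2k1 (-0.13 and 0.12) lie on opposite sides of 0, and the dim points are the darkest.

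Genes around the cascade gave 0 values past the adjusted test as well. Of 20 measured genes for Ras, Raf and their regulators 14 were below 0 (median -0.039), with the smallest p-values for Rasgrf2 (-0.16 ± 0.102, SE) and Rasgrp2 (-0.17 ± 0.118, SE), exchange factors that switch on Ras family proteins. Of 14 kinases and transcription factors that MAP kinases phosphorylate 10 were below 0 (median -0.043), with Mef2a at 0.11 and Mknk2 at -0.085. Of 8 genes for STEP substrates and their relatives 7 were below 0 (median -0.048). The NMDA receptor subunit Grin2b averaged 8.21 ± 0.37 in Hdh4/Q80 and 8.48 ± 0.169 in wild type (SD, n = 3 each), Grin2a differed by -0.13 and the kinase Fyn by -0.045. The 14 other phosphatases were split evenly (7 below 0, median 0.0027), with Cdc25c at 0.13 and Ppp3cb, a calcineurin subunit, at 0.12. Over all genes 53.3% were below 0. Hdh4/Q80 replicate 8 had the lowest mean level of the mutants in each of these lists. It read 7.39 for Ras and Raf (highest mutant 7.49, wild type 7.46 to 7.48) and 7.74 for the phosphorylated targets (7.77, and 7.75 to 7.80). For the STEP substrates it read 8.13 (8.32, and 8.30 to 8.34), and for the other phosphatases 8.52 (8.55, and 8.48 to 8.61).

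The immediate early genes, many of which ERK signalling induces, had 9 of 10 measured members below 0 (median -0.11), against 53.3% of all genes. Of the 10, 0 passed the adjusted test, and 1 was lower at an unadjusted p under 0.05, as were 2.21% of all probe sets. That 1 gene was Egr1, which read 9.87, 9.59 and 9.67 in Hdh4/Q80 replicates 7, 8 and 9, against 10.04, 10.06 and 10.11 in wild-type replicates 4, 5 and 6. Its groups were apart, as they were on the lower side for 5.22% of all genes, with a difference of -0.36 ± 0.084 (SE). Nr4a1 differed by -0.50 ± 0.228 (SE) with overlapping groups. Mean levels of this list ran from 7.26 to 7.68 in Hdh4/Q80 and from 7.41 to 7.76 in wild type.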

How the data were processed

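Striatal RNA of 3 Hdh4/Q80 and 3 wild-type mice was measured on 6 arrays, 1 per mouse, grouped and numbered by their titles. Nothing says whether the arrays share a batch. The authors computed the deposited log2 values with RMA (affy), per the submitters' processing notes, which give no version. RMA equalises intensity distributions, which removes global changes. With 3 arrays per group, array number limits the precision.

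Of 12488 probe sets, 66 controls were left out of the tests. A platform annotation gave 10833 probe sets 1 symbol, 396 several and 1193 none; the symbols of all 105 member probe sets matched RefSeq by gene identifier. For genes with more than 1 probe set the brightest one, by its mean across the 6 arrays, was used. Groups were compared with lmFit and eBayes of limma 3.58.1 (R 4.3.3; degrees of freedom 4 residual, 5.81 prior), p-values were adjusted by Benjamini-Hochberg over 12422 probe sets at a threshold of 0.05, and the fit was tested on simulated data. Members and lists were chosen with earlier results of these data known. The rule named a panel of 24 genes (some, such as Map2k7, Dusp3 and Dusp4, were not analysed here), the 5 genes of smallest p in each direction, every member probe set with an unadjusted p under 0.05 and the 2 genes of smallest p in each pathway list; the remaining members and markers were named after their values were seen, to account for their family. Alternatives were a filter on the dimmest 40% of probe sets, median centring, quantile and cyclic loess normalization, robust trended moderation, weighting of arrays, averaging the probe sets of each gene, and leave-one-out over mice.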

Additional observations from a re-analysis of the deposited data

How the results depend on the processing

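No member probe set passed the adjusted threshold (0 of 105) under the main setting, nor with 1 mouse left out (0 to 0), nor in the 6 other settings that refit the probe sets, where 0 passed over all probe sets too. Counts at an unadjusted p under 0.05 did move. The 1 member with a higher mean became 0 without the dimmest 40%, after median centring, quantile normalization or cyclic loess. In those settings 1.91%, 2.73%, 2.58% and 2.7% of all probe sets were called higher. The count became 7 with array weights, where 8.9% of all probe sets were called higher. The 3 with a lower mean became 1 without the dimmest 40%, where 2.63% of all probe sets were called lower. With 1 mouse left out these counts ran from 0 to 3 and from 0 to 8, the highest without Hdh4/Q80 replicate 7 (4.07% of all probe sets were then called higher) and without replicate 9 (4.46% lower), and both 0 without wild-type replicate 5 (1.71% higher and 1.56% lower). The median difference of the member genes (-0.037) ran from -0.048 to -0.00029 with 1 mouse left out, the weakest value without Hdh4/Q80 replicate 8, and from -0.037 to -0.012 in the other settings. Member genes below 0 numbered 44 after median centring, quantile normalization, cyclic loess and trended moderation, 40 with array weights and 35 without replicate 8, a count chosen after seeing the data. In the same order of settings, 53.3%, 50.6%, 50%, 53.3%, 46.9% and 48.6% of all genes were below 0. Array weights gave 6.19 to Hdh4/Q80 replicate 7, against 0.228 and 0.405 to replicates 8 and 9. Of 26 named genes, 7 changed sign in 10 of 162 values from the other settings. With array weights Mapk9 was 0.089, Mapk10 0.0042, Ptpn11 0.035 and Map4k4 -0.016. Averaging all probe sets per gene, Ptpn5 was 0.018 and Mapk10 0.0020. After quantile normalization and cyclic loess Mapk14 was 0.023 and 0.023, and Ptprc -0.016 and -0.0042. With 1 mouse left out 6 genes changed sign: Mapk10 ran from -0.13 to 0.035, Mapk14 from -0.061 to 0.032, Ptpn11 from -0.092 to 0.013, Ptprd from -0.11 to 0.078, Ptprs from -0.17 to 0.091 and Ptprc from -0.032 to 0.091. The cause of these changes was not tested. No paired analysis was made, since the sample titles give running replicate numbers and no litter or other pairing of the mice.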

Other observations

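On the brightest probe set of each gene, the members with the widest range over the 6 mice were Dusp6 (range 0.823), Ptprm (0.706), Ptpn5 (0.698), Ptprs (0.515) and Dusp8 (0.508). In Dusp6, Ptprm, Ptpn5, Ptprs and Dusp8 the lowest mouse was Hdh4/Q80 replicate 8, while the highest differed: wild-type replicate 6 for Dusp6, wild-type replicate 4 for Ptpn5, and Hdh4/Q80 replicate 9 for Ptprm, Ptprs and Dusp8. The activity-induced gene Fos, named here after its values were seen, divided the mice otherwise, at 6.48, 5.13 and 4.87 in Hdh4/Q80 replicates 7, 8 and 9, against 4.98, 6.47 and 6.52 in wild-type replicates 4, 5 and 6. Camk2a, a kinase abundant in cortical neurons, read 9.92, 9.26 and 9.07 in Hdh4/Q80 replicates 7, 8 and 9, against 9.33, 10.00 and 10.18 in wild-type replicates 4, 5 and 6. The choroid plexus marker Ttr read 8.46, 10.59 and 11.24 in Hdh4/Q80 replicates 7, 8 and 9, against 8.48, 8.32 and 10.26 in wild-type replicates 4, 5 and 6. All 4 measured choroid plexus markers had differences above 0 (median 0.57). Differences were below 0 for 5 of 6 cortical markers (median -0.19) and 3 of 4 blood markers (median -0.15), against 53.3% of all genes. At an unadjusted p under 0.05 in limma's test 2 blood markers and 0 cortical markers were lower, against 2.21% of all probe sets. In both lists 0 passed the adjusted test. The mean level of the blood markers was 8.38 to 8.49 in Hdh4/Q80 and 8.50 to 8.67 in wild type. The part of these markers in the values of the kinase and phosphatase genes was not tested.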
